A study of Homo sapiens with 2 samples.

Results

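Heat shock chaperones of the cytosol and the mitochondrion were followed in A549 cells, a human lung adenocarcinoma line, in 1 library from cells with an shRNA against SOX2 and 1 library from cells with a scrambled control shRNA. The members are 51 genes of the HSP70, HSP90, small heat shock protein, DNAJ, chaperonin, prefoldin and co-chaperone families, with the heat shock factors HSF1 and HSF2, and they were taken by gene symbol from the table of 13137 genes. Of the 51, 50 had a row. HSPA1B, a near-copy of HSPA1A, had none, and only its promoter was examined. In both lines the hairpin was expressed from a doxycycline-inducible H1 promoter carried by a lentivirus (A549-H1tetO-shRNA-SOX2 and A549-H1tetO-shRNA-Con), the cells had been selected with puromycin as a polyclone, and both were collected after 4 days of doxycycline. A single hairpin sequence was used for SOX2, and cells without a hairpin or without doxycycline were not analysed here. Digital gene expression counts a short tag per captured mRNA molecule, so counts are not divided by transcript length, and levels are given as TPM, here a gene's tags over all gene tags of the library. The TPM of the authors divides by all clean tags, a larger total, so their values are lower.

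Chaperones bind unfolded or partly folded proteins and release them after cycles of ATP use. HSP70 proteins take clients delivered by J-domain (DNAJ) partners, nucleotide exchange factors such as the BAG proteins and HSP110 reset them, STIP1 passes clients on to HSP90, and the ring-shaped CCT chaperonin folds actin and tubulin handed over by prefoldin. Mitochondria hold their own set, with HSPA9, its J-domain partner DNAJA3 and exchange factor GRPEL1, the chaperonin HSPD1 with its lid HSPE1, and the HSP90 relative TRAP1. Under proteotoxic stress HSF1 binds heat shock elements, inverted repeats of GAA, in the promoters of the inducible genes, and tumour cells often hold high levels of these chaperones.

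Columns of the table were read as SC for shRNA-Con and S1, the remaining column, for shRNA-SOX2. That reading rests on the initials alone and is not certain. SOX2 tags numbered 16 in the control library and 23 in the one labelled shRNA-SOX2 (ratio 1.58, 95% Clopper-Pearson interval 0.80 to 3.20), so a lower level of the targeted mRNA was not detectable there, and every direction below is that of the label. SOX2 protein was not analysed here. The libraries held 2304184 (shRNA-Con) and 2093816 gene tags. Of the epithelial markers, KRT8 had 7702 and 12729 tags and KRT18 had 10318 and 7887, CDH1 had 50 in each, KRT19 had 35 and 127, and EPCAM had only 8 and 4. Of 6 markers of blood, endothelial and stromal cells, 4 had a row, with at most 5 tags for PTPRC, CD68 and PECAM1, and 44 and 43 for COL1A1. Neither condition has a replicate. Fisher's exact test (two-sided) was run on the tags of each gene, p-values were adjusted by the Benjamini-Hochberg method across the 13137 genes, and FDR 0.001 was the threshold. The test compares these libraries and not the conditions, intervals cover counting error only, and fewer cells with an mRNA cannot be told apart from less of it per cell.

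Promoters of heat-inducible genes typically carry heat shock elements, and 6 member promoters are shown to set the elements beside the tag counts that follow. They come from the RefSeq table of GRCh38.p14, whose windows of 300 bases span each gene start, and which held 61 windows for 43 of the 51 members. Heat shock elements were searched as GAANNTTC and TTCNNGAA, which read the same on both strands, and matches are in capitals. Overlapping matches form longer runs of 3 or more units. HSPA1A (chr6:31815293-31815592, plus strand), the stress-inducible cytosolic HSP70, has a match at position -106 from the start, and HSPA8 (chr11:123062087-123062386, minus strand), the constitutive HSP70, has a 3-unit run at -230 and another at -55. HSP90AA1 (chr14:102086995-102087294, minus strand, the downstream of its starts in the table) has a 3-unit run at -88 and a further match at -68. The window at its upstream start has no match. DNAJA1 (chr9:33025023-33025322, plus strand), a J-domain partner of HSP70, has a 3-unit run at 4 bases from the start and a match at -198. HSPD1 (chr2:197499791-197500090, minus strand, the downstream of its starts) has overlapping matches at -245, -240 and -235, and the window at its upstream start has none. HSPA9 (chr5:138575352-138575651, minus strand), the mitochondrial HSP70, has a match at -4 and is shown because its tags fell.
HSPA1A: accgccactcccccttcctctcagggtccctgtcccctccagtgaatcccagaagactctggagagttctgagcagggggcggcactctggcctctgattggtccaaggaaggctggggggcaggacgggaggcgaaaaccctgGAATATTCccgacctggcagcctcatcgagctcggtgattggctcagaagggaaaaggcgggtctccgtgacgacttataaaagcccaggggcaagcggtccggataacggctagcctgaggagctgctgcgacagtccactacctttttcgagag
HSPA8: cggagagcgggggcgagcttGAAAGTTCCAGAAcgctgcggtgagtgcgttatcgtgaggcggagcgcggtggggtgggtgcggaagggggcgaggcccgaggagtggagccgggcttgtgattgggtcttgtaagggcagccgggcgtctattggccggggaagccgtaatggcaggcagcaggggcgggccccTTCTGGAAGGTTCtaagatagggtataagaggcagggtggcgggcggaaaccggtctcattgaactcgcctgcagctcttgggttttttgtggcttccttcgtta
HSP90AA1: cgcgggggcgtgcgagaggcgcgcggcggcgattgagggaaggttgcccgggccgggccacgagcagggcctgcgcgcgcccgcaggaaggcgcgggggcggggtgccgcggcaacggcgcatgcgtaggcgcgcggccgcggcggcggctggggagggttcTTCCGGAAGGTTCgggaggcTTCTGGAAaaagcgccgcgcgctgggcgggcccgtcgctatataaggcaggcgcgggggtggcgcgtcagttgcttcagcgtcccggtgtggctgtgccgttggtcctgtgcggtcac
DNAJA1: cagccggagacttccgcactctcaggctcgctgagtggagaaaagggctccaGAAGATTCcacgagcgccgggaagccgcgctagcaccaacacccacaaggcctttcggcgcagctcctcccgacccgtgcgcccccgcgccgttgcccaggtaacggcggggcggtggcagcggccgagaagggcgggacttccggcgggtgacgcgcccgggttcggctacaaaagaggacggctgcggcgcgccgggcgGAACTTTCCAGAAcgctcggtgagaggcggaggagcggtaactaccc
HSPD1: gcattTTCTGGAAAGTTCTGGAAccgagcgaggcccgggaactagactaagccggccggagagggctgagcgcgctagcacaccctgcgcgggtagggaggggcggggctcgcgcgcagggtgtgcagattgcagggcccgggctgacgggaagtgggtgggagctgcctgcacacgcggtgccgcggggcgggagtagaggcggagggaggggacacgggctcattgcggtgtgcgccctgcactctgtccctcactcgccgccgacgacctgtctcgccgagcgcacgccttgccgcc
HSPA9: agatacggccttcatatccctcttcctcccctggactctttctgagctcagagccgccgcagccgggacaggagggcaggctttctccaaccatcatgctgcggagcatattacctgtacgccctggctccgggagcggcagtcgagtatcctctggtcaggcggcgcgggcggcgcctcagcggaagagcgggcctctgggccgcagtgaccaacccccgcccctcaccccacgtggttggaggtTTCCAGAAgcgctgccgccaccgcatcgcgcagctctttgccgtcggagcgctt

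A match to either element stood in 20 of the 43 members with a window, 46.5%, and in 16.2% of the 27305 genes of the promoter table. A run of 3 units (GAANNTTC followed after 2 bases by GAA, or its complement on the other strand) stood in 6 members, 14%, and in 0.608% of all genes. These 6 were DNAJA1, DNAJB6, HSP90AA1, HSP90AB1, HSPA8 and HSPD1, and all 6 were past FDR 0.001 with more tags in the library labelled shRNA-SOX2, with log2 ratios from 0.32 to 1.20. These members are also abundant, with 551 to 4329 tags, and 9.53% of all genes and 16.6% of those with at least 100 tags were called higher. Of 48 other measured genes with a 3-unit run, 4 were higher (8.33%) and 6 lower (12.5%), against 9.65% and 12.5% of those with a window and no run. With at least 100 tags required and the 6 members included, 10 of 28 genes with a run were higher (35.7%) and 6 lower (21.4%). Without a run these shares were 16.6% and 22.1%. Among the 36 measured members with a window and no such run, 10 were past the threshold with more tags, 6 with fewer, and 20 did not pass. With either element, 12 of 19 measured members were higher, 1 (HSPA9) was lower and 6 did not pass, and without one 4 of 23 were higher and 5 lower. Of the 1461 other measured genes with either element, 9.03% were higher, and of the 9030 without one, 9.75%. With at least 100 tags required and members included, 17.0% of 710 genes with either element were higher, and 16.6% of 4515 without one. The match is a description of these letters in these windows, and binding of HSF1 was not measured.

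Over the whole set, 25 of the 50 measured members were past FDR 0.001, against 21.7% of all genes in the table. Of these, 18 members (36%) were higher and 7 (14%) lower in the library labelled shRNA-SOX2, against 9.53% and 12.2% of all genes. Members are abundant, with a median of 542 tags in the libraries together against 89 for all genes, and abundant genes pass a counting test at smaller differences. Among genes with at least 100 tags, 17 of 43 members (39.5%) were higher against 16.6% of all genes, and 7 (16.3%) were lower against 22.5%. In all, 24 of these 43 were called, 55.8%, against 39.1%. By size alone the members were close to the table. At least 2-fold higher were 6 of 50 against 11.0% of all genes, and at least 2-fold lower were 4 of 50 against 12.1%. With at least 20 tags required, the counts were 5 and 4 of 49 members, and the shares of all genes 10.4% and 13.0%. The median log2 ratio over the 49 members with at least 20 tags was 0.11 (lower and upper quartiles -0.35 and 0.47), and that of all 10045 such genes was -0.10. With clean tags as the total these medians were -0.0023 and -0.22.

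The split of calls moved with the scaling. With edgeR's TMM factors 23 members were called, 19 higher and 4 lower, against 21.3% of all genes called. With the authors' clean tags as the total, 24 were called, 15 higher and 9 lower, against 23.0%. The split of the whole table moved the same way. Over all genes 1252 were higher and 1597 lower in the main setting, 1414 and 1381 with TMM factors, and 1008 and 2010 with clean tags. The number of calls depended most on the spread between cultures, which Fisher's exact test takes as 0. When edgeR's exact test was given a coefficient of variation between cultures of 0.1, 11 members were past FDR 0.001 (8.88% of all genes), and with 0.2 only HSPA1A was (0.860% of all genes). The 11 were HSPA1A, DNAJB4, HSPB1, ST13, DNAJA1, HSPA8, HSPE1 and DNAJB1 among the higher members, and DNAJA3, HSPA9 and PFDN2 among the lower.

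**Figure D1:**
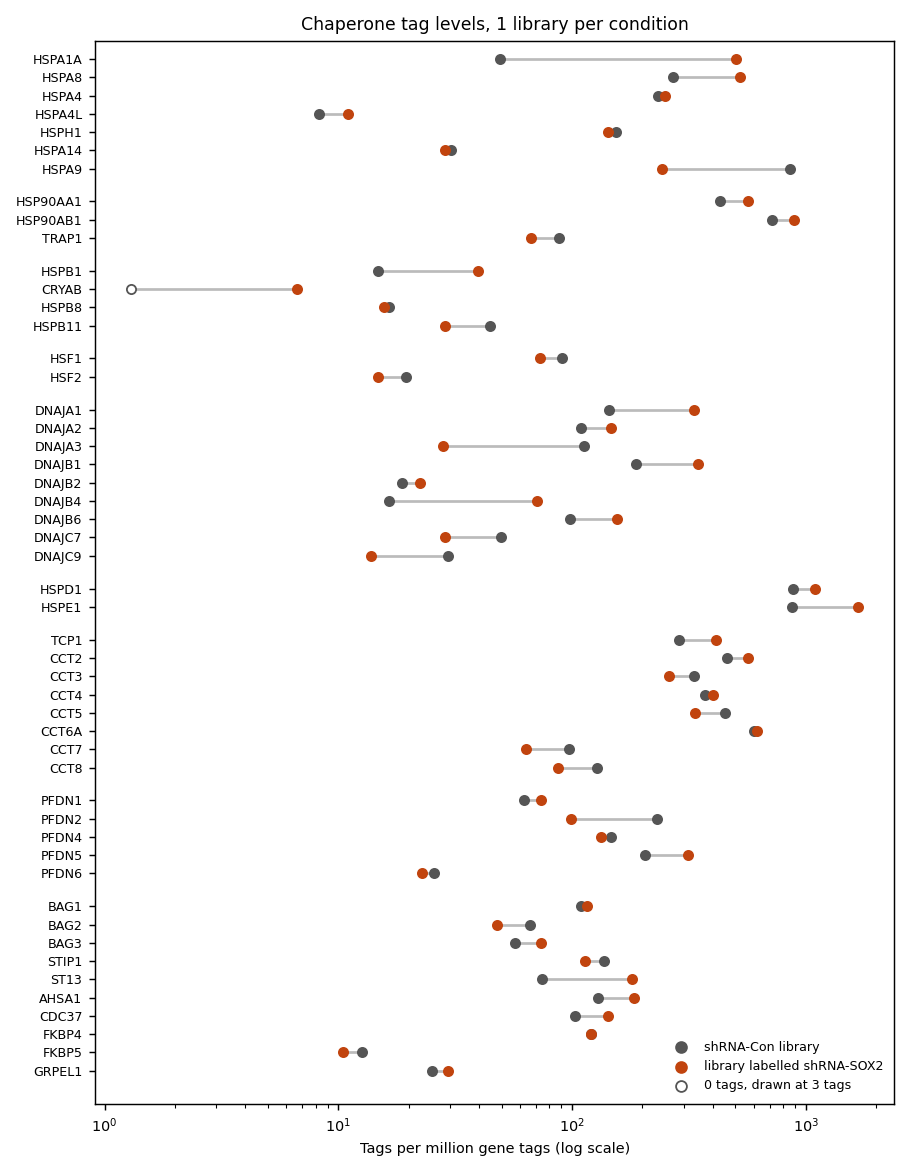
Level in TPM of gene tags (log scale) of each of the 50 measured members in the shRNA-Con library (grey) and the library labelled shRNA-SOX2 (orange), grouped by family, with the lines joining the libraries and the open circle drawn at 3 tags for CRYAB, which had 0.  HSPA1A moved from 49.0 to 501 and HSPA9 from 860 to 244, while most pairs of points lie close together.

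HSPA1A (Entrez Gene ID 3303) had the largest ratio of the members with tags in both libraries, which leaves out CRYAB. Its tags numbered 113 in shRNA-Con, or 49.0 TPM, and 1049 in the library labelled shRNA-SOX2, or 501 TPM. The ratio was 10.2 (8.41 to 12.5), a log2 ratio of 3.35 (adjusted p = 2.47e-208, Fisher's exact test). By level HSPA1A stood at rank 37 of the 50 members in shRNA-Con and at rank 8 in the other. Of the 21-base windows of its longest protein-coding GENCODE transcript, 75.6% also occur in HSPA1B. Which window gave the tags is not known, for HSPA1A and for the shares of windows given below, so whether its tags include HSPA1B was not tested. HSPA1L, the testis-type relative in the same gene cluster, had 3 and 7 tags.

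HSPA8 (3312), the constitutive HSP70 that supports folding in unstressed cells, rose from 622 to 1095 tags, a ratio of 1.94 (1.75 to 2.14) with an adjusted p of 1.65e-39 in Fisher's exact test. HSPA8 has 20 annotated pseudogenes by name, and 56% of its windows occur in other genes. The HSP110 proteins, large HSP70 relatives that exchange nucleotide, did not pass the threshold. HSPA4 had 536 and 526 tags, HSPH1 had 354 and 299, and HSPA4L had 19 and 23. Their intervals all included a ratio of 1. For HSPH1 the interval was 0.79 to 1.09, and for HSPA4L, with few tags, it was 0.69 to 2.59. HSPA14, a ribosome-associated HSP70, had 70 and 60 tags.

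HSPA9 (3313), the mitochondrial HSP70 that pulls imported proteins into the matrix, fell from 1981 tags (860 TPM) to 510 (244 TPM). That is a 3.53-fold decrease, or a log2 ratio of -1.82 (-1.96 to -1.68, adjusted p = 9.5e-172, Fisher's exact test). In shRNA-Con HSPA9 stood at rank 3 among the members, where its counting interval of 822 to 899 TPM overlapped those of HSPD1 (841 to 918) and HSPE1 (836 to 913). In the library labelled shRNA-SOX2 it stood at rank 17. The ratio of HSPA8 to HSPA9 tags, which no scaling can change, was 0.314 for shRNA-Con and 2.15 for the other library, a 6.83-fold change (5.94 to 7.87). The endoplasmic reticulum HSP70 HSPA5 (3309), not a member, had 7458 and 2082 tags, and the ratio of HSPA8 to HSPA5 changed 6.31-fold (5.64 to 7.05). The summed tags of the HSP70 and HSP110 group were 3695 and 3562, a ratio of 1.06 (1.01 to 1.11), which turned to 0.981 with clean tags as the total. Without HSPA9 the sum had a ratio of 1.96 (1.85 to 2.08), and without HSPA1A 0.772.

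HSP90 members had ratios closer to 1. HSP90AA1 (3320), the inducible cytosolic form, rose from 992 to 1191 tags, a ratio of 1.32 (1.21 to 1.44, adjusted p = 1.08e-09, Fisher's exact test). HSP90AB1 (3326), the constitutive form, rose from 1647 to 1873, a ratio of 1.25 (1.17 to 1.34, adjusted p = 3.9e-10, Fisher's exact test). The ratio of HSP90AA1 to HSP90AB1 was 0.602 for shRNA-Con and 0.636 for the library labelled shRNA-SOX2, and the interval of its change, 0.95 to 1.18, included 1. TRAP1, the mitochondrial HSP90, had 202 and 140 tags and did not pass (log2 ratio -0.39, interval -0.71 to -0.07). Relative to TRAP1, HSP90AB1 was 1.64-fold higher (1.30 to 2.07) in the library labelled shRNA-SOX2. Against HSP90B1 of the endoplasmic reticulum, with 2962 and 2699 tags, it was 1.25-fold higher (1.15 to 1.36). The HSP90 paralogues share 46.4% (HSP90AA1) and 56% (HSP90AB1) of their windows with other genes, of which the pseudogenes HSP90AA2P and HSP90AB3P share most.

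Small heat shock proteins hold unfolded clients without using ATP. Among the 4 members listed under that name, 2 rose and 2 did not pass. Of all genes, 9.53% were higher. HSPB1 (3315) went from 34 to 83 tags, a ratio of 2.69 (1.78 to 4.13, adjusted p = 2.94e-06, Fisher's exact test). CRYAB (1410), alpha-B crystallin, had 0 tags in shRNA-Con against 14 in the library labelled shRNA-SOX2 (adjusted p = 0.000169, Fisher's exact test). With 3 tags set in place of the 0, the ratio of CRYAB was 5.14, which is not a lower bound. From the counts of 0 and 14, the lower end of its Clopper-Pearson interval was a ratio of 3.65. HSPB8, the partner of BAG3 in selective autophagy, had 38 and 33 tags, and HSPB11, a subunit of intraflagellar transport now named IFT25, had 103 and 60. Neither of those passed, with adjusted p of 0.966 and 0.0187 in Fisher's exact test. BAG3 (9531) itself had 132 and 154 tags, a ratio of 1.28 (1.01 to 1.63), also short of the threshold (adjusted p = 0.0902, Fisher's exact test).

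The heat shock factors did not differ past the threshold. HSF1, the main stress-responsive factor, had 209 and 153 tags, a ratio of 0.806 (0.650 to 0.997), and HSF2 had 45 and 31, a ratio of 0.758 (0.464 to 1.23). Their adjusted p were 0.105 and 0.381 (Fisher's exact test). The ratio of HSF1 to HSF2 was 4.64 for shRNA-Con and 4.94 for the other library. Both counts were lower in the library where HSPA1A was higher, short of the threshold, and the protein or phosphorylation state of the factors was not measured.

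**Figure D2:**
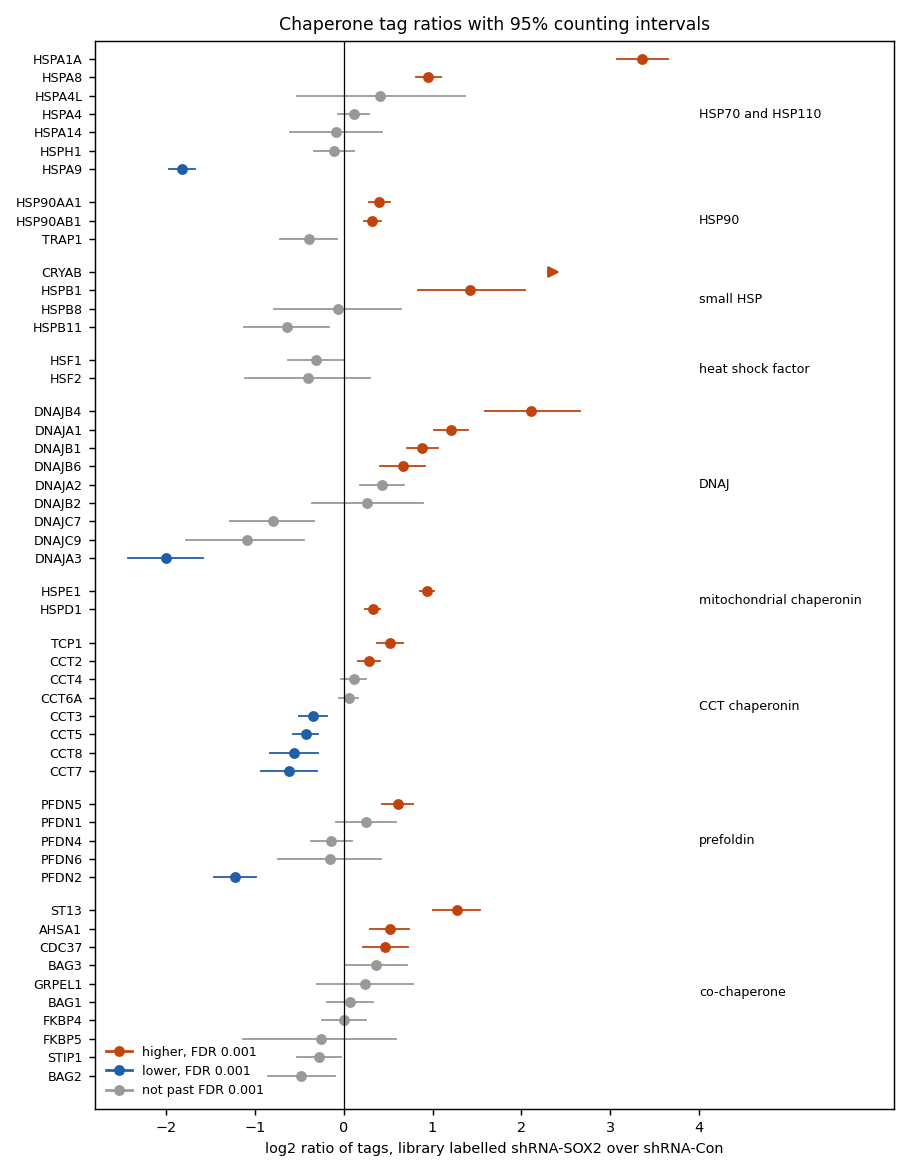
log2 ratio of tags, library labelled shRNA-SOX2 over shRNA-Con, for each measured member by family, with 95% Clopper-Pearson intervals from counting error. Orange members are higher and blue ones lower past FDR 0.001, grey ones did not pass, and the triangle marks CRYAB, whose ratio is drawn with 3 tags in place of 0 and without an interval. HSPA1A lies farthest to the right at 3.35 and DNAJA3 farthest to the left, with a 3.99-fold decrease.

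The DNAJ proteins, which bring clients to HSP70 and trigger its ATP cycle, went in both directions. Of 9 members 4 rose, 1 fell and 4 did not pass, against 9.53% and 12.2% of all genes that were higher and lower. DNAJB4 (11080) rose from 38 to 149 tags, a ratio of 4.32 (log2 interval 1.59 to 2.66, adjusted p = 6.88e-18, Fisher's exact test). DNAJA1 (3301) rose from 333 to 697, a ratio of 2.303 (2.02 to 2.63). DNAJB1 (3337), the classical HSP40, rose from 431 to 723, a ratio of 1.85 (1.64 to 2.09). DNAJB6 (10049), a suppressor of aggregation, rose from 226 to 325, a ratio of 1.58 (1.33 to 1.88). All of these are cytosolic or nuclear partners of HSP70. DNAJA2, close kin of DNAJA1, had 251 and 308 tags and did not pass (adjusted p = 0.00184, Fisher's exact test), but it did with TMM factors (adjusted p = 0.000206) and the median ratio (adjusted p = 0.000208). Within a library, where scaling has no part, the ratio of DNAJA1 to DNAJA2 changed 1.71-fold (1.37 to 2.12). That of DNAJB1 to DNAJB6 changed 1.17-fold with an interval of 0.94 to 1.44.

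DNAJA3 (9093), the mitochondrial partner of HSPA9, fell from 259 to 59 tags, a 3.99-fold decrease (log2 interval -2.43 to -1.58) and the largest decrease of the members (adjusted p = 1.46e-25, Fisher's exact test). None of the 21-base windows of its transcript occurs in another gene (0%). DNAJC7, which binds both HSP70 and HSP90, had 115 and 60 tags, and DNAJC9, a histone co-chaperone, had 68 and 29. Both fell short of the threshold with adjusted p of 0.00198 and 0.00207 (Fisher's exact test), although DNAJC9 was past 2-fold, and both passed with clean tags as the total. DNAJB2 had 43 and 47 tags.

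The mitochondrial members moved in both directions. HSPE1 (3336), the lid of the mitochondrial chaperonin, rose from 2013 tags (874 TPM) to 3507 (1675 TPM), a ratio of 1.92 (1.81 to 2.03, adjusted p = 1.19e-122, Fisher's exact test). HSPD1 (3329), the chaperonin barrel, rose from 2024 to 2305, a ratio of 1.25 (1.18 to 1.33, adjusted p = 1.81e-12, Fisher's exact test). HSPD1 and HSPE1 lie head to head on chromosome 2, and the window at the upstream start of HSPD1 overlaps that of HSPE1 (197500225 to 197500524 and 197500129 to 197500428 of GRCh38.p14). The ratio of HSPD1 to HSPE1 tags was 1.005 in shRNA-Con, against 0.657 in the library labelled shRNA-SOX2, a 0.654-fold change (0.602 to 0.71). These genes have 22 and 28 annotated pseudogenes by name, and 57.6% and 33.1% of their windows occur in other genes. GRPEL1, the exchange factor of HSPA9, had 58 and 62 tags and did not pass. Summed over the 6 mitochondrial members, the tags were 6537 and 6583, a ratio of 1.11 (1.07 to 1.15), made of 2 members that rose, 2 that fell and 2 that did not pass. Over all genes 9.53% were higher and 12.2% lower.

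The CCT chaperonin is a ring of 8 different subunits present in equal number in the complex, and all 8 were measured. Its summed tags were 6283 and 5748, a ratio of 1.01 (0.97 to 1.04) that was 0.931 with clean tags as the total. The subunits were not equal within this sum. TCP1 rose from 661 to 864 tags (ratio 1.44, 1.30 to 1.59) and CCT2 from 1065 to 1180 (1.22, 1.12 to 1.33). CCT3 fell from 765 to 547 tags (0.787, 0.704 to 0.879), CCT5 from 1041 to 702 (0.742, 0.673 to 0.817), CCT7 from 224 to 133 (0.653, 0.523 to 0.813) and CCT8 from 295 to 182 (0.679, 0.561 to 0.82). CCT4 had 852 and 838 tags and CCT6A had 1380 and 1302, and neither passed. With TMM factors CCT3, CCT7 and CCT8 no longer passed, and with clean tags CCT2 did not.

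A subunit's share of the CCT tags does not depend on the scaling. TCP1 took 10.5% of them in shRNA-Con, against 15.0% in the library labelled shRNA-SOX2, a 1.505-fold change against the other subunits (1.35 to 1.68). CCT5 went from 16.6% to 12.2% (0.701-fold, 0.631 to 0.778). For 6 of the 8 subunits the interval excluded 1, and for CCT4 (0.98 to 1.21) and CCT6A (0.954 to 1.135) it did not. Shares are parts of the same sum, so a gain by some subunits lowers the shares of others, and these intervals are not independent. Sets of genes outside chaperone complexes were not examined for comparison. CCT6A had the most tags of the subunits in both libraries and CCT7 the fewest.

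Prefoldin, the jellyfish-shaped complex that hands clients to CCT, was listed by 5 of its 6 subunits, and the sums and shares below leave out VBP1, the remaining one. PFDN2 (5202) fell from 531 to 207 tags, a ratio of 0.429 (0.364 to 0.505, adjusted p = 8.55e-26, Fisher's exact test). PFDN5 (5204), also known as the MYC-binding protein MM-1, rose from 474 to 656, a ratio of 1.52 (1.35 to 1.72, adjusted p = 2.97e-11, Fisher's exact test). PFDN1 had 143 and 155 tags, PFDN4 had 337 and 278, and PFDN6 had 59 and 48, and none of these passed. Of the tags on these 5 genes, PFDN2 took 34.4% (32.0 to 36.8) in shRNA-Con and 15.4% (13.5 to 17.4) in the library labelled shRNA-SOX2, while PFDN5 went from 30.7% (28.4 to 33.1) to 48.8% (46.1 to 51.5). VBP1 had 405 and 419 tags, and with it added, after the data were seen, PFDN2 took 27.2% and 11.7% of the 6 subunits' tags and PFDN5 24.3% and 37.2%. Of the 21-base windows of PFDN2 0.457% occur in other genes, and of those of PFDN5 5.93%.

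**Figure D3:**
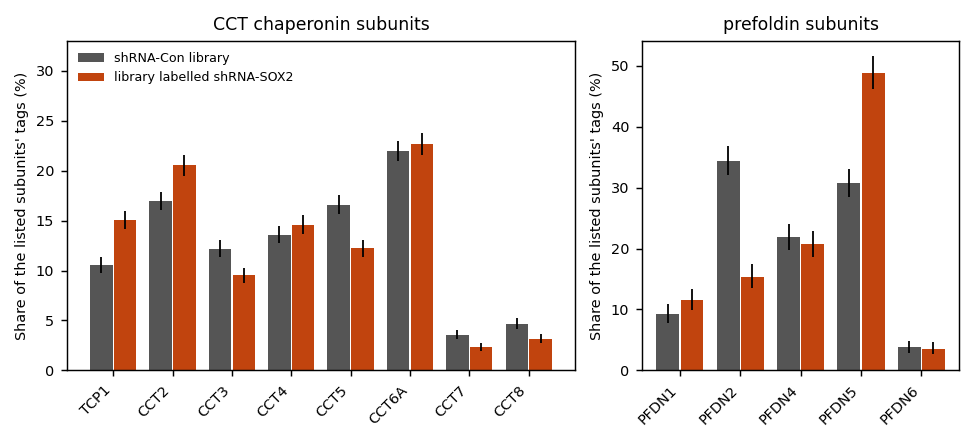
Share (%) of the tags of the 8 CCT subunits and of the 5 prefoldin members that each subunit took in the shRNA-Con library (grey) and the library labelled shRNA-SOX2 (orange), with 95% Clopper-Pearson intervals. PFDN2 went from 34.4% to 15.4% and PFDN5 from 30.7% to 48.8%, and TCP1 and CCT2 gained where CCT3, CCT5, CCT7 and CCT8 lost.

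Of the 10 co-chaperones 3 rose and none fell past the threshold, against 9.53% and 12.2% of all genes that were higher and lower. ST13 (6767), the HSP70-interacting protein Hip that holds HSP70 in its client-bound state, rose from 172 to 377 tags, a ratio of 2.41 (2.01 to 2.91, adjusted p = 8.82e-22, Fisher's exact test). It has 22 annotated pseudogenes by name, and 43.2% of its windows occur in other genes. AHSA1 (10598), the activator of the HSP90 ATPase, rose from 297 to 386, a ratio of 1.43 (1.23 to 1.67), and CDC37 (11140), which brings kinases to HSP90, rose from 237 to 298, a ratio of 1.38 (1.16 to 1.65, adjusted p = 0.000895, Fisher's exact test). With clean tags AHSA1 and CDC37 no longer passed.

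STIP1, the adaptor between HSP70 and HSP90, had 316 and 237 tags and did not pass (adjusted p = 0.0677, Fisher's exact test). The ratio of STIP1 to ST13 changed from 1.84 to 0.629, a 0.34-fold change (0.27 to 0.44). FKBP4, an immunophilin of steroid receptor complexes, had 278 and 253 tags, a log2 ratio of 0.00 (-0.25 to 0.25). FKBP5, its relative and a glucocorticoid target, had 29 and 22. Among the BAG proteins, BAG1 had 253 and 242 tags and BAG2, an inhibitor of the ubiquitin ligase STUB1, had 153 and 100 (adjusted p = 0.0333, Fisher's exact test). Altogether 14 within-library ratios were planned, 12 had tags enough for a value and 7 of those had an interval that excluded 1. These intervals cover counting error only, and pairs of other genes were not examined for comparison.

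Other chaperone genes were read from lists of gene names. Of 64 further cytosolic and mitochondrial chaperones, 53 had a row and 3 were past FDR 0.001, against 21.7% of all genes. At least 100 tags were counted for 32 of the 53, and 39.1% of all such genes were called. CHORDC1, an HSP90 co-chaperone, rose from 157 to 345 tags (ratio 2.42), and HSBP1, a negative regulator of HSF1, rose from 388 to 753 (ratio 2.14, 1.89 to 2.42). DNAJC14 fell from 105 to 33 (log2 ratio -1.53). It is a J-domain protein of the endoplasmic reticulum membrane, although the list names the cytosol and mitochondrion. GRPEL2, the second exchange factor of HSPA9, had 52 and 20 tags and did not pass (adjusted p = 0.00333, Fisher's exact test). The median log2 ratio of the 42 genes with at least 20 tags was -0.12, near that of all genes. Of 8 genes of mitochondrial proteases and the disaggregase CLPB, LONP1, the main matrix protease, fell from 106 to 35 tags (log2 ratio -1.46), SPG7 rose from 217 to 286 (log2 ratio 0.54), and 6 did not pass. Over all genes 12.2% were lower and 9.53% higher. GRPEL2 and SPG7 were named after their values were seen.

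In the endoplasmic reticulum set 15 of 21 genes fell, 3 rose and 3 did not pass, against 12.2% of all genes lower and 22.5% of those with at least 100 tags, which all 21 had. The median log2 ratio was -0.90, and the summed tags were 23313 and 12372, a ratio of 0.584 (0.571 to 0.597). The exception in size was SERPINH1, the collagen chaperone HSP47 and an HSF1 target, which rose from 240 to 727 tags (log2 ratio 1.74). CRELD2 (212 and 52 tags), SDF2L1 (312 and 83), HYOU1 (240 and 70) and PDIA3 (294 and 92) were among the 10 that were lower by at least 2-fold, with HSPA5, HSPA13, MANF, DNAJB11, CALR and PDIA4. The summed tags of the 50 measured members were 22518 and 24572, a ratio of 1.20 (1.18 to 1.22). The difference between the lists was not tested.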

How the data were processed

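Digital gene expression was measured in 2 libraries from A549 cells, 1 per condition, each made from 4 µg of total RNA. The authors purified mRNA on oligo(dT) beads, profiled it by digital gene expression and deposited a count of tags per gene and a TPM value, which divides the count by the clean tags of the library with no term for length. Genome build hg19 is named in the submitters' processing notes, and the aligner is not given in the sources used here. The deposited log2 ratio, p-value and FDR columns hold the authors' own comparison and were not used.

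The members and lists were chosen with earlier results of these data known. Every member was named, with SOX2, HSPA5, HSP90B1 and the genes of the other lists past FDR 0.001 with at least a 2-fold difference. Counts were divided by the gene tags of the library, 2304184 for shRNA-Con and 2093816 for shRNA-SOX2. The 19 rows without a symbol, 0.0535% and 0.0372% of tags, carry a gene or transcript identifier and stayed in the totals and the tests. For ratios, counts under 3 were set to 3, and ratios have 95% Clopper-Pearson intervals. Ratios of ratios and subunit shares against the other subunits have exact conditional intervals. Medians used genes with at least 20 tags. Fisher's exact test (scipy 1.17.1) was two-sided with Benjamini-Hochberg adjustment over 13137 genes. The test, the log2 ratio and the interval of a single gene's ratio were checked on simulated data, and the other steps were not. Alternatives were scaling by TMM (edgeR 4.0.16), by the median ratio (DESeq2 1.42.0) and by clean tags (3516261 and 3456212, recovered from the count over the deposited TPM), other thresholds and filters, the test of Audic and Claverie, and edgeR's exact test with an assumed coefficient of variation. Shared sequence was measured in 21-base windows of the longest protein-coding GENCODE transcript, and pseudogenes and promoters came from RefSeq GRCh38.p14, matched by symbol or gene identifier and not by coordinates of the deposited build.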

Additional observations from a re-analysis of the deposited data

How the results depend on the processing

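With 1 library per condition no left-out library could be tried, and counting depth limits members with few tags. HSPA4L, the small HSPs, HSF2 and FKBP5 are among those with wide intervals. No paired analysis was possible because neither condition was sequenced in replicate. Depth does not stand in for replicates: a spread between cultures was assumed in edgeR's exact test, and at a coefficient of variation of 0.1 the 25 calls became 11 (8 higher and 3 lower), at 0.2 they became 1 (1 higher, 0 lower), and at 0.4 they became 0 (0 higher and 0 lower), with 5 members and 627 of all genes at an unadjusted p under 0.05. Requiring a 2-fold difference as well left 9 members, 6 higher and 3 lower, against 681 higher and 889 lower of all 13137 genes. With TMM or median ratio factors 4 members were lower in place of 7, against 1381 and 1385 of all genes in place of 1597. Under these factors 19 members were higher in place of 18, against 1414 and 1401 of all genes in place of 1252. With FDR 0.05, 12 of the 50 measured members were lower and 19 higher, against 2754 and 2148 of all 13137 genes. Past 1.5-fold were 18 members, 11 higher and 7 lower, in place of 10 past 2-fold. Genes of the whole table past 1.5-fold were not counted. TMM moved every gene by 0.07 (log2) and clean tags by -0.11, and with clean tags the median of the members was -0.0023 and that of all genes -0.22. Scaling by TMM or the median ratio turned HSPB8 to 0.0075 and 0.0051, and clean tags turned FKBP4 to -0.11, CCT6A to -0.059, BAG1 to -0.039 and HSPA4 to -0.0023, all of them members that did not pass. Adding 0.5 to each count changes only the ratio and not the test, and it moved CRYAB from 2.36 to 4.996 (log2), above HSPA1A at 3.35. With TMM or median ratio factors CCT3, CCT7 and CCT8 were lost and DNAJA2 gained.

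The ratio of summed tags became, with TMM and median ratio factors, 1.263 and 1.261 for the members, 1.116 and 1.114 for HSP70 and HSP110, 1.666 and 1.664 for the mitochondrial chaperonin and 1.059 and 1.057 for CCT. With clean tags it became 1.11 for the members, 0.981 for HSP70 and HSP110, 1.147 for HSP90, 1.382 for DNAJ, 1.465 for the mitochondrial chaperonin, 0.931 for CCT, 0.886 for prefoldin and 1.126 for the co-chaperones. Without HSPA1A it was 1.155 for the members and 0.772 for HSP70 and HSP110. Without the most abundant gene of the group it was 1.131 for the members (HSPE1), 1.96 for HSP70 and HSP110 (HSPA9), 1.987 for the small HSPs (HSPB11), 1.382 for DNAJ (DNAJB1), 1.253 for the mitochondrial chaperonin (HSPE1) and 0.708 for prefoldin (PFDN5), and with VBP1 added, chosen after seeing the data, prefoldin was 0.995. The cause of these shifts is the construction of each alternative, a different total or list.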
